A study of Rattus norvegicus with 10 samples.

Results

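The 30 genes described here encode the enzymes of cholesterol synthesis, the regulators that set their transcription, and the first enzymes of fatty acid synthesis. They were taken by symbol from a written list, drawn up with earlier results of these data known, and all 30 were found among the 17168 genes of the deposited tables. The study sequenced RNA of the hippocampus, left side only, with 1 library for each of 10 TgF344-AD rats, all transgenic, male and 11 months old. Of these, 5 were untreated. The other 5 were fed RG2833 at 750 mg per kg of chow, starting at 5 months of age and lasting 6 months. RG2833 inhibits the histone deacetylases HDAC1 and HDAC3, enzymes that remove acetyl groups from histones. TgF344-AD is a rat model of Alzheimer's disease; the line is generally described as carrying human amyloid precursor protein and presenilin transgenes under a mouse prion promoter, which the labels do not state. No wild-type or female rat was analysed here. A sentence of the design text on the timing names another drug, ibudilast, while the title and every treatment label name RG2833.

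Cholesterol in the brain is made in place, because lipoproteins of the blood do not cross the blood-brain barrier. In the adult brain astrocytes are held to make much of it for neurons, and oligodendrocytes make it for myelin. The pathway starts from cytosolic acetyl-CoA, passes through mevalonate, farnesyl pyrophosphate, squalene and lanosterol, and ends with cholesterol. The transcription factors SREBP-1 and SREBP-2, encoded by Srebf1 and Srebf2, switch these genes on when membrane sterols run low: Scap then escorts them out of the endoplasmic reticulum, and the Insig proteins hold Scap back when sterols are plentiful. Neurons dispose of cholesterol by turning it into 24-hydroxycholesterol with the enzyme encoded by Cyp46a1.

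Total expected counts ran from 15118203 to 18533520 per library, and the untreated and RG2833 means of 17377762 and 16097119 gave p = 0.0952 in a two-sided exact permutation test. The lowest count of any member in any library was 55.5 expected reads, for Hsd17b7. All 7 markers of hippocampal neurons looked up were detected in every library. Their summed level ran from 465 to 1254 CPM (counts per 1e6 reads of a library size scaled by the authors) in untreated and from 594 to 1123 CPM in RG2833 libraries. The lowest 3 sums, 465, 594 and 596 CPM, belonged to untreated replicate 3 and RG2833 replicates 5 and 4. The 8 choroid plexus markers summed to 7617 CPM in untreated replicate 2 and 9012 CPM in RG2833 replicate 1, against 10.1 to 282 CPM in the other 8 libraries. In whole tissue, fewer cells of a type and less RNA per cell cannot be told apart.

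None of the 30 members passed the comparison of RG2833 with untreated rats. By edgeR's quasi-likelihood test, 0 of 30 had a Benjamini-Hochberg adjusted p under 0.05, and the smallest adjusted p among them was 0.841; of the 12161 genes tested, 0% passed. At an unadjusted p under 0.05 there were 2 members (6.67%), where 5.66% of all genes tested were under that value. They were Acaca with the higher mean in RG2833, beside 2.94% of all genes, and Aacs with the lower mean, beside 2.71%. A share so near the background is not a result about the members. With 1 library left out the count of 2 became 7 (23.3%, beside 5.30% of all genes in the same refit) without RG2833 replicate 2. It became 4 (13.3%, beside 14.2% of all genes) without untreated replicate 3, all with adjusted p-values of 0.283 or more by edgeR. DESeq2, run on the same counts, called 7 of all genes and 0 of the members. In the deposited CPM, the groups overlapped for all 30 members, while 0.995% of all genes had groups that did not overlap (0.51% higher and 0.485% lower in RG2833).

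The estimated differences were small. The log2 fold change was above 0 in 12 members and below 0 in 18 (60%), against 53.5% below 0 among all genes tested. Its median over the 30 was -0.056, from -0.23 for Ebp to 0.19 for Acaca, beside a median of -0.011 over all genes tested. With 1 library left out that median ran from -0.086 without RG2833 replicate 2 to -0.032 without RG2833 replicate 5 and was -0.037 without RG2833 replicate 4, and the value of Ebp ran from -0.34 without untreated replicate 3 to -0.13 without untreated replicate 5. The 95% interval of the log2 fold change lay within 1.5-fold either way for 29 of 30 members, against 75.1% of all genes tested. The exception was Ebp, whose interval reached -0.63. The median SE was 0.087 over the members and 0.117 over all genes tested, so these shares were not taken at like precision. Leaving out 2 libraries rich in choroid plexus RNA, untreated replicate 2 and RG2833 replicate 1, lowered the number of members above 0 from 12 to 6 (20%, beside 45.4% of all genes). Leaving out untreated replicate 2 alone lowered it to 7 (23.3%, beside 50.6%).

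**Figure D1:**
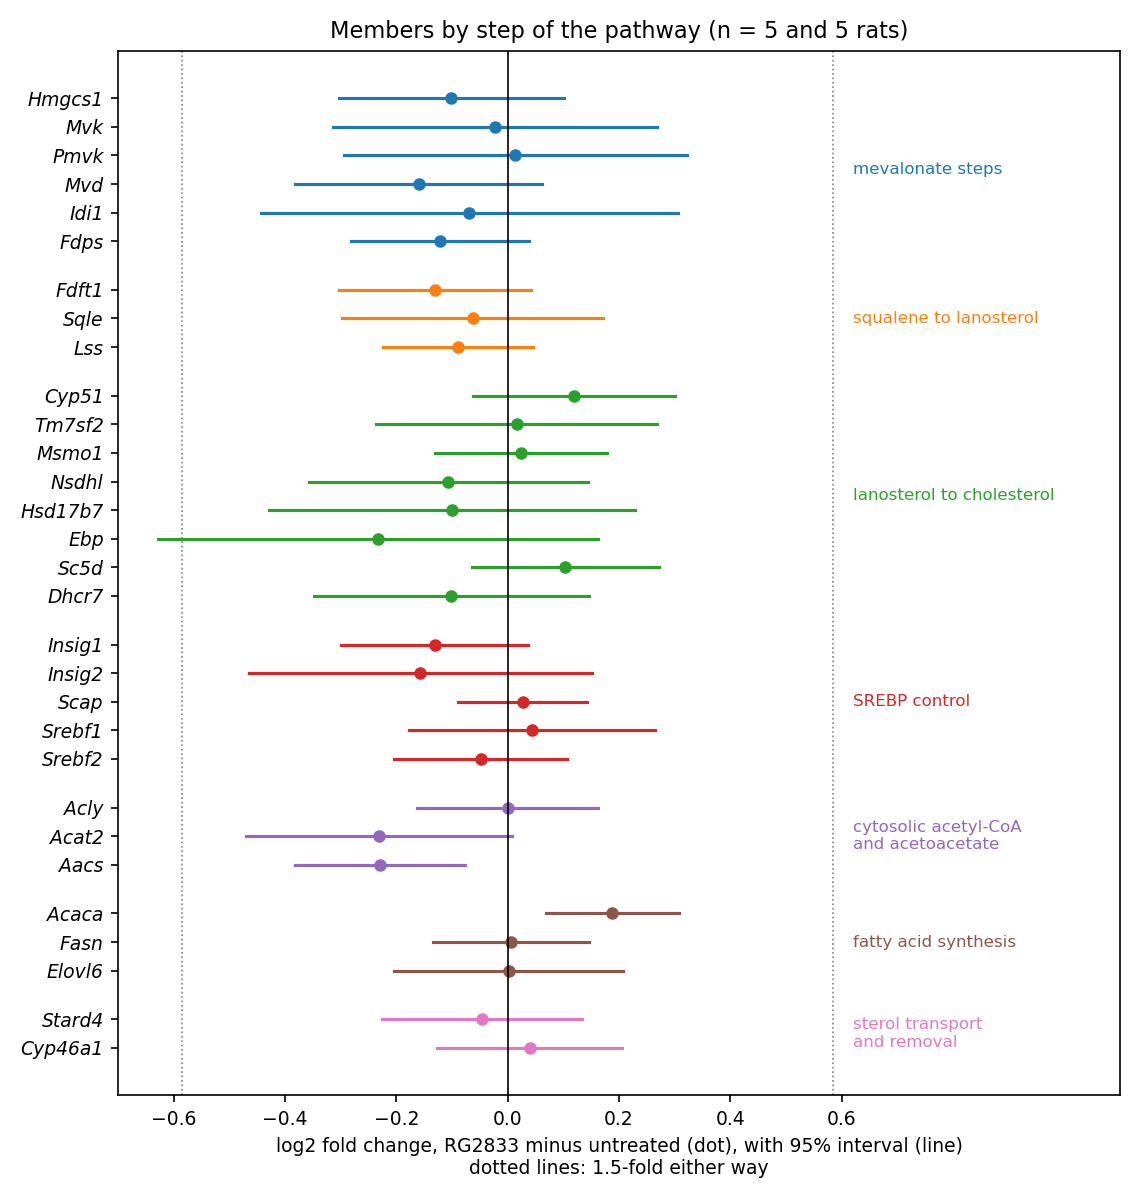
Log2 fold change of each of the 30 members (dot; x axis, RG2833 minus untreated, n = 5 rats each) with its 95% interval (line), in pathway order on the y axis and coloured by step. All intervals except those of Acaca, which lies above 0, and Aacs, which lies below, include 0, and only that of Ebp crosses the dotted line that marks 1.5-fold.

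The fatty acid arm held the member with the smallest unadjusted p. Acaca encodes acetyl-CoA carboxylase 1, which makes malonyl-CoA, the building block of fatty acid synthesis. With the libraries of each group in the order of replicates 1 to 5, here and in what follows, it was at 97.8, 87.6, 100.3, 95.99 and 95.1 CPM in the untreated libraries, and at 98.5, 108, 112, 110.5 and 118 CPM in the RG2833 libraries. Of the RG2833 values, 4 of 5 lay above every untreated value, and RG2833 replicate 1 lay below untreated replicate 3. The means were 95.4 ± 4.78 and 109 ± 7.16 CPM (SD, n = 5 each). On the log2 scale RG2833 was 0.19 above untreated (SE 0.054; 95% interval 0.068 to 0.31), and edgeR's quasi-likelihood test gave an unadjusted p of 0.00558 and an adjusted p of 0.841. When the libraries were rescaled by TMM over the tested genes, the groups of Acaca did not overlap: the highest untreated value was 97.7 CPM and the lowest RG2833 value 99.1 CPM. On that scale 1% of all genes had groups that did not overlap.

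Astrocyte markers followed the order of Acaca in part; 9 of the 10 listed were tested. The mean log2 deviation of the 9 tested astrocyte markers from their 10-library mean was lowest in untreated replicate 2, at -0.49, where Acaca was also lowest. It was 0.40 in both RG2833 replicates 4 and 5, where Acaca was at 110.5 and 118 CPM. It was 0.28 in untreated replicate 3, the untreated library with the most Acaca, and -0.25 in RG2833 replicate 1, the RG2833 library with the least. RG2833 replicate 1 nonetheless had a lower astrocyte deviation than untreated replicates 1, 4 and 5 (-0.23, -0.17 and -0.23) and more Acaca than each of them. RG2833 replicates 2 and 3 went against that order too: their astrocyte deviations, 0.11 and 0.17, were below that of untreated replicate 3, and their Acaca, at 108 and 112 CPM, was above its 100.3 CPM. All 9 tested astrocyte markers had a log2 fold change above 0 (0.14 to 0.52), 2 of them (22.2%, beside 5.66% of all genes) at an unadjusted p under 0.05 and 0 at an adjusted p under 0.05 by edgeR. The summed level of the 9 ran from 5413 to 8303 CPM in untreated and from 6202 to 9123 CPM in RG2833 libraries, and none was at 0. Their part in the Acaca values was not tested.

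The other enzymes of that arm had differences close to 0. Fasn, the fatty acid synthase that joins malonyl-CoA units into palmitate, was at 525, 466, 499, 474 and 536 CPM in the untreated libraries, and at 475, 531, 533, 505 and 483 CPM in the RG2833 libraries. The groups overlapped over almost their whole ranges, with means of 499.7 ± 30.4 and 505 ± 26.7 CPM (SD) and a log2 fold change of 0.0062 (95% interval -0.13 to 0.15; edgeR adjusted p = 0.996). Elovl6, which lengthens palmitate, lay between 27.3 and 35.8 CPM without the drug and between 29.5 and 35.5 CPM with it, a log2 fold change of 0.0016. Of its expected counts none was whole in any library, so part of its reads was divided with other sequences by the authors' counting and its level is uncertain; the same holds for Srebf1 and Hsd17b7. The sign of the Fasn and Elovl6 values turned with the scaling used: by upper-quartile factors they were -0.00025 and -0.0042.

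Of the enzymes that handle acetyl-CoA and acetoacetate in the cytosol, Aacs and Acat2 had lower means in RG2833. Aacs encodes acetoacetyl-CoA synthetase, which activates the ketone body acetoacetate for lipid synthesis. It was at 47.8, 43.8, 43.9, 37.2 and 45.9 CPM in the untreated libraries, and at 35.9, 40.4, 37.7, 37.03 and 36.6 CPM in the RG2833 libraries. Untreated replicate 4 lay among the RG2833 values, and the other 4 untreated values lay above all RG2833 values. Group means were 43.7 ± 4.02 and 37.5 ± 1.74 CPM (SD, n = 5 each). The log2 difference was -0.23 (SE 0.069; 95% interval -0.38 to -0.077). By edgeR's quasi-likelihood test its unadjusted p was 0.00711 and its adjusted p 0.841.

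Acat2 encodes the cytosolic thiolase that condenses acetyl-CoA to acetoacetyl-CoA. It was at 65.6, 57.8, 49.6, 57.3 and 61.6 CPM in the untreated libraries, and at 45.9, 61.1, 53.7, 47.6 and 42.02 CPM in the RG2833 libraries. The groups overlapped: RG2833 replicate 2 lay above 3 untreated libraries, and untreated replicate 3 lay below 2 RG2833 libraries. The log2 difference was -0.23 (SE 0.11; 95% interval -0.47 to 0.0074), with an edgeR unadjusted p of 0.0563 and an adjusted p of 0.841. Acly, the ATP citrate lyase that supplies cytosolic acetyl-CoA and is a source of it for histone acetylation, averaged 294 ± 29.6 CPM (SD) in untreated rats and 296 ± 15.6 CPM in treated ones. Its log2 fold change was 0.00011 (95% interval -0.16 to 0.16; edgeR adjusted p = 1.00).

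Promoter letters are shown for Aacs and for Acat2, Idi1 and Nsdhl, members of the correlated pairs described further on, chosen after their values were seen. The RefSeq promoter table, on the GRCr8 build, matched 23 of 30 members; Pmvk, Fdft1, Sqle, Stard4, Acaca, Fasn and Elovl6 were not matched. Each window of 300 bases, 250 before and 50 after the start of the gene, was searched on both strands for the sterol response element TCACNCCAC, the E-box CACGTG, the NF-Y box CCAAT and the Sp1 box GGGCGG. SREBP binds the first of these and works together with NF-Y and Sp1 at many of its targets. In the bases below, printed 5′ to 3′ on the strand of the gene and only upstream of its outermost annotated start, capitals mark each match, CCAAT or its reverse ATTGG, and GGGCGG or its reverse CCGCCC. The regions are chr17:66547525-66547774 (minus strand) for Idi1, chrX:155817110-155817300 (plus) for Nsdhl, chr1:50100590-50100839 (plus) for Acat2 and chr12:36817836-36818024 (minus) for Aacs.
Idi1: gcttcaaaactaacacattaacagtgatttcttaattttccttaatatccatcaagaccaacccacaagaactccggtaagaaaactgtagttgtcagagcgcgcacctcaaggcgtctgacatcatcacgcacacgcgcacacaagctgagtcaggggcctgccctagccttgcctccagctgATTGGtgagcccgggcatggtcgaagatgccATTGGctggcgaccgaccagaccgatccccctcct
Nsdhl: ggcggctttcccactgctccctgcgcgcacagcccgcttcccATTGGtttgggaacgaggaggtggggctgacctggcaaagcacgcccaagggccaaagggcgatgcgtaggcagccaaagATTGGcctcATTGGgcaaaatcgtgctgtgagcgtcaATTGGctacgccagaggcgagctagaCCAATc
Acat2: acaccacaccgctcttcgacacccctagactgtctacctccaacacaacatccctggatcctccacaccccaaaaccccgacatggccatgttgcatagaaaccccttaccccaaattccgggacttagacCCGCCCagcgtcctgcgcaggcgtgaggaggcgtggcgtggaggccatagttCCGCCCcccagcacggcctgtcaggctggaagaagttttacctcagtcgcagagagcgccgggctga
Aacs: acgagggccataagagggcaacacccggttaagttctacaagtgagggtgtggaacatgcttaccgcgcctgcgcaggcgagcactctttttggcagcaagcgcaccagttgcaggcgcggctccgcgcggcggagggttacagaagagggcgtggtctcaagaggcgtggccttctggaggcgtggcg
Upstream of Nsdhl there are 5 NF-Y boxes and upstream of Idi1 there are 2, while the bases shown for Acat2 hold 2 Sp1 boxes and no NF-Y box, and those for Aacs hold none of the 4 motifs.

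Over all members with a promoter, the NF-Y box was found in 18 of 23 (78.3%), against 37.5% of all 33469 promoters and 36.9% of the 9553 promoters of genes tested. The Sp1 box was found in 19 of 23 (82.6%), against 33.1% and 61.6%, and the E-box in 3 of 23 (13%), against 6.42% and 8.86%. The sterol response element in these letters was in 0 of 23, against 1.12% of all promoters, which says only that the exact letters are not in these windows. The median GC content of the windows was 65% for members and 61% for genes tested. A match is a description of the sequence and not evidence of binding.

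**Figure D2:**
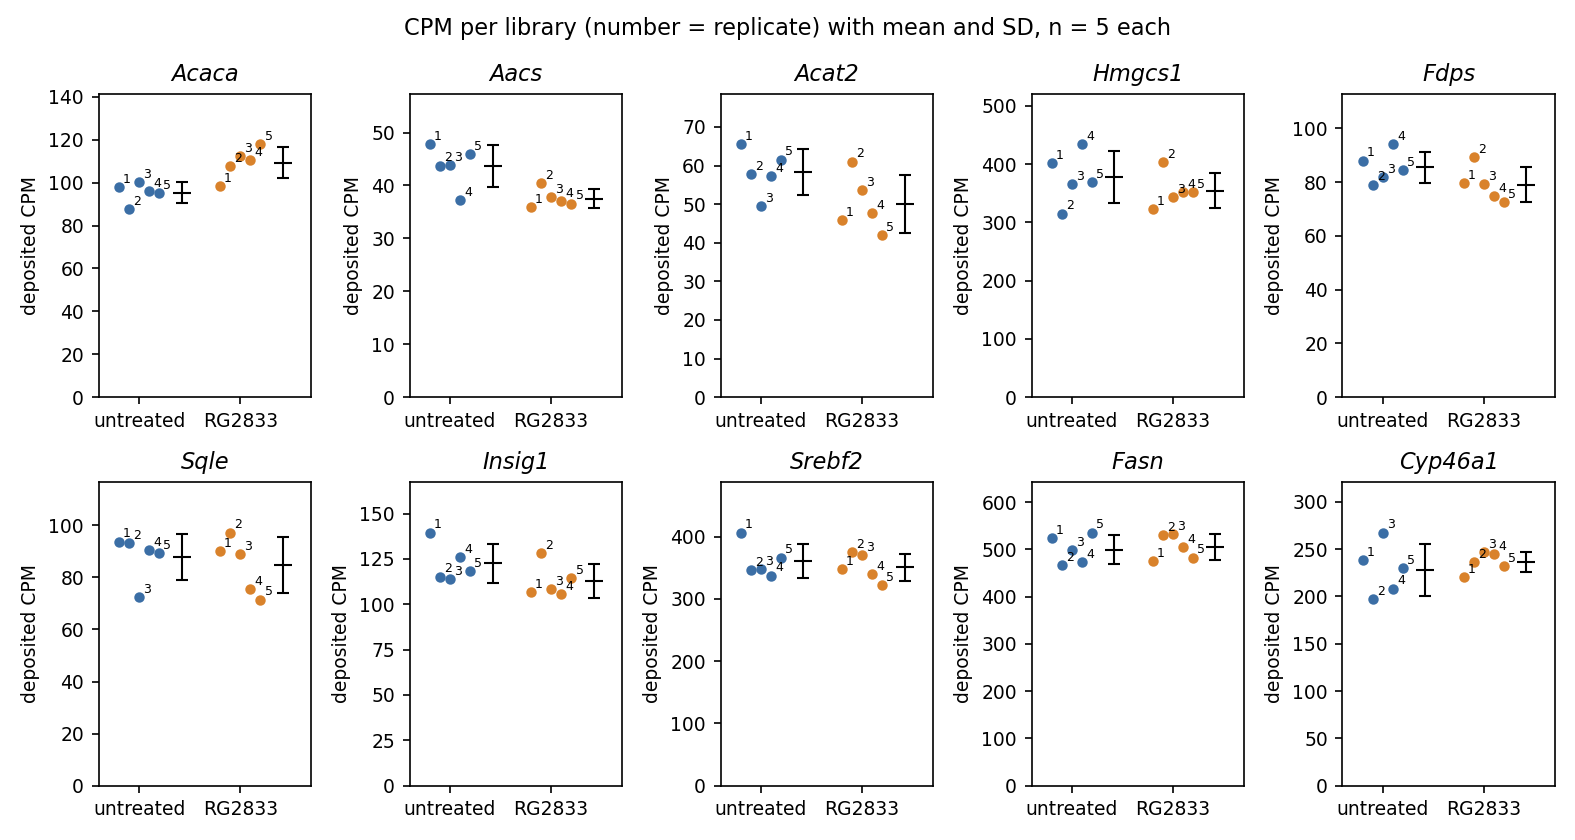
Deposited TMM-scaled CPM (y axis, linear from 0) of 10 members in each library, numbered by replicate, for untreated (blue) and RG2833 rats (orange); the black mark and bar beside each group are its mean and SD (n = 5). Only for Acaca and Aacs do 4 of 5 libraries of 1 group lie beyond all libraries of the other, and in all 10 genes the groups overlap.

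Of the 6 mevalonate enzymes, 5 had log2 fold changes below 0 and 1 above, with a median of -0.085 and 0 at an unadjusted p under 0.05. That median was -0.15 without RG2833 replicate 2, -0.13 without untreated replicate 3 and -0.053 without untreated replicate 4. Hmgcs1 encodes the cytosolic HMG-CoA synthase that feeds the pathway. It was at 402, 315, 366, 434 and 369.6 CPM in the untreated libraries, and at 322, 403, 343, 351 and 352 CPM in the RG2833 libraries. Its lowest value and its highest value were both in untreated rats, so the RG2833 range lay inside the untreated range. The means were 377 ± 44.5 and 354 ± 29.8 CPM (SD), with a log2 fold change of -0.10 (95% interval -0.30 to 0.10; edgeR adjusted p = 0.919). That fold change ran from -0.15 to -0.042 with 1 library left out.

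Fdps, the synthase of farnesyl pyrophosphate from which both sterols and prenyl groups are made, was at 88.03, 79.1, 81.97, 94.2 and 84.6 CPM in the untreated libraries, and at 79.7, 89.2, 79.3, 74.8 and 72.6 CPM in the RG2833 libraries. The 2 lowest values were those of RG2833 replicates 5 and 4, and RG2833 replicate 2 was above 4 of 5 untreated libraries. Between groups its log2 fold change was -0.12 (95% interval -0.28 to 0.038; edgeR adjusted p = 0.841). For the other 4 enzymes of this step the log2 fold changes were -0.023 for Mvk (mevalonate kinase), 0.014 for Pmvk (phosphomevalonate kinase), -0.16 for Mvd (mevalonate diphosphate decarboxylase) and -0.069 for Idi1 (isopentenyl diphosphate isomerase). Mvd spanned 42.4 to 48.7 CPM without the drug and 35.2 to 52.1 CPM with it, so that its highest and its lowest value both came from RG2833 libraries.

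The 3 enzymes from squalene to lanosterol all had log2 fold changes below 0, with a median of -0.089 and 0 at an unadjusted p under 0.05. Sqle, the squalene epoxidase that takes the first oxygen-dependent step, was at 93.7, 93.1, 72.4, 90.5 and 89.2 CPM in the untreated libraries, and at 90.2, 97.2, 88.8, 75.5 and 71.5 CPM in the RG2833 libraries. In 7 libraries Sqle lay between 88.8 and 97.2 CPM, and in untreated replicate 3 and RG2833 replicates 4 and 5 it lay between 71.5 and 75.5 CPM. For this gene the log2 fold change was -0.063 (95% interval -0.30 to 0.17; edgeR adjusted p = 0.960). With 1 library left out it ran from -0.13 to -0.0025. Fdft1, the squalene synthase, had a log2 fold change of -0.13, and Lss, the cyclase that forms lanosterol, one of -0.089.

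From lanosterol to cholesterol, 4 of 8 enzymes were above 0 and 4 below. Cyp51, the lanosterol demethylase, was at 251.6, 197, 238, 253 and 226 CPM in the untreated libraries, and at 223, 268, 246, 279.8 and 257 CPM in the RG2833 libraries. Of the RG2833 libraries, 3 of 5 were above every untreated one. Its log2 fold change was 0.12 (95% interval -0.062 to 0.30; edgeR adjusted p = 0.881).

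Sc5d, the lathosterol oxidase near the end of the pathway, was at 101, 76.4, 89.01, 94.4 and 82.8 CPM in the untreated libraries, and at 84.9, 100.1, 99.7, 96.5 and 98.6 CPM in the RG2833 libraries. Untreated rats held both its highest and its lowest value. Between groups its log2 fold change was 0.10 (95% interval -0.065 to 0.27; edgeR adjusted p = 0.894).

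Ebp, the isomerase that moves the double bond of the sterol ring, was at 10.9, 11.5, 7.72, 10.96 and 14.1 CPM in the untreated libraries, and at 11.7, 9.80, 10.7, 7.32 and 7.72 CPM in the RG2833 libraries. As for Sqle, the lowest 3 values were those of untreated replicate 3 and RG2833 replicates 4 and 5. Between groups the log2 difference was -0.23 (SE 0.18; 95% interval -0.63 to 0.16; edgeR adjusted p = 0.903). The remaining 5 enzymes of this step, Tm7sf2, Msmo1, Nsdhl, Hsd17b7 and Dhcr7, had log2 fold changes from -0.11 to 0.023.

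The regulators showed no larger differences than the enzymes. Insig1, itself a target of SREBP and so often read as a gauge of its activity, was at 139.5, 115, 114, 126 and 118 CPM in the untreated libraries, and at 107, 128, 109, 105 and 115 CPM in the RG2833 libraries. RG2833 replicate 2 was above 4 of 5 untreated libraries, while 3 RG2833 libraries were below all untreated ones. For this gene the log2 fold change was -0.13 (95% interval -0.30 to 0.037; edgeR adjusted p = 0.841). Srebf2, which encodes the factor that acts mainly on sterol genes, was at 407, 346, 348, 338 and 367 CPM in the untreated libraries, and at 347, 375, 371, 340.1 and 323 CPM in the RG2833 libraries. Its groups overlapped, with a log2 fold change of -0.049 (95% interval -0.20 to 0.11; edgeR adjusted p = 0.952).

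For the other 3 regulators the log2 fold changes were 0.044 for Srebf1, 0.027 for Scap and -0.16 for Insig2. With 1 library left out they ran from -0.0012 to 0.12, from 0.0052 to 0.043 and from -0.26 to -0.064, in that order. Scap was the steadiest member from rat to rat: it ran from 175 to 200.1 CPM without the drug and from 187 to 197 CPM with it. Its SD of log2 CPM within groups, 0.070, stood at the 5.10 percentile of all genes tested.

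Sterol transport and removal were represented by 2 genes. Cyp46a1, the 24-hydroxylase of neurons, was at 238, 197, 267, 208 and 230.2 CPM in the untreated libraries, and at 220.4, 237, 246, 244 and 232 CPM in the RG2833 libraries. The RG2833 values all lay inside the untreated range. Its log2 fold change was 0.039 (95% interval -0.13 to 0.21; edgeR adjusted p = 0.969). Stard4, a carrier of sterol between membranes, had a log2 fold change of -0.046 and ran from 17.03 to 22.7 CPM over the 10 libraries.

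A further 32 genes of the pathway were looked up from a written list, and 29 of them were tested. They cover other enzymes of sterol and fatty acid synthesis, the proteases that cleave SREBP and further SREBP targets, sterol efflux and storage with its LXR receptors, and other sterol hydroxylases. At an adjusted p under 0.05, 0 of 29 passed by edgeR. At an unadjusted p under 0.05 there was 1 (3.45%), again near the background of 5.66%. Without untreated replicate 3 the count was 7 (24.1%), beside 14.2% of all genes in the same refit. It was 2 (6.90%) without untreated replicate 2 or RG2833 replicate 3, beside 4.17% and 4.81% of all genes. It was 0 without untreated replicates 1, 4 or 5 or RG2833 replicate 4, beside 5.21%, 4.88%, 4.62% and 3.07% of all genes. In the full data the gene was Fads1, the delta-5 fatty acid desaturase, at 306, 351, 409, 319 and 316 CPM in the untreated libraries, and at 376, 373, 374, 412 and 428 CPM in the RG2833 libraries. Of the RG2833 libraries, 2 lay above every untreated one, and untreated replicate 3 lay above the other 3; the log2 fold change was 0.20 (95% interval 0.0036 to 0.39; edgeR adjusted p = 0.841). Over the 29 genes, 15 were above 0 and 14 below, with a median log2 fold change of 0.00055. In the list of other fatty acid enzymes, 6 of 9 were above 0, with a median of 0.085, and the median was -0.057 over the 4 tested genes of other sterol synthesis. Fads1 is itself 1 of the 9 tested genes in the list of other fatty acid enzymes, so the list is not independent of it. The libraries with the most Fads1, untreated replicate 3 and RG2833 replicates 4 and 5, were also the 3 highest in that list (mean log2 deviations 0.14, 0.12 and 0.16). They were the 3 highest in astrocyte markers as well (0.28, 0.40 and 0.40), whose part in these values was not tested.

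Members differed from each other in how much they varied between rats. The median SD of log2 CPM within groups was 0.14 over the 30 members, beside 0.18 over all genes tested and 0.16 over the 9796 tested genes in the members' range of mean log2 CPM. Acaca, at 0.085, stood at the 10.1 percentile of all genes tested. At the other end Idi1 had an SD of 0.30 and Ebp one of 0.29, the 76.2 and 74.4 percentiles. Idi1 was at 54.3, 47.4, 30.4, 52.04 and 49.8 CPM in the untreated libraries, and at 48.8, 53.8, 48.1, 40.1 and 33.9 CPM in the RG2833 libraries. Its lowest 3 values were again those of untreated replicate 3 and RG2833 replicates 4 and 5.

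Correlations between members over the 10 rats are given beside those of the members with all genes. Of the 435 pairs of members, 16 (3.68%) had r over 0.8, beside 2.82% of all pairs of a member with any gene tested. Idi1 had r over 0.8 with 6.90% of the other members and 10.3% of all genes tested, and Sqle with 17.2% and 9.35%. For Nsdhl, Acat2 and Fdft1 it was 10.3% of the other members each, beside 5.33%, 2.58% and 2.56% of all genes. Over the 435 pairs of members, 4 had a Pearson correlation of log2(CPM + 0.5) over the 10 libraries with an adjusted p under 0.05 (permutation test with 100000 resamples, two-sided, adjusted over the 435 pairs); by Spearman's rho 0 pairs did. With each gene taken as its deviation from its group mean, 21 pairs did. Those deviations were permuted freely over the 10 libraries, which takes no account of the centring, so their p-values can be too small. These counts are not a result about the members. The smallest r among the 4 pairs was 0.90, a size reached by 0.920% of pairs of members and 0.958% of pairs of a member with any gene tested. For the 21 pairs of deviations it was 0.82 without regard to sign, reached by 6.21% and 5.92%. The pairs below are therefore descriptions of these libraries. The closest pair was Idi1 and Sqle, with r = 0.95 (permutation p = 0.00036, adjusted 0.0446) and rho = 0.84 (permutation p = 0.00368, adjusted 0.142). Without untreated replicate 3 and RG2833 replicate 5, the 2 libraries farthest from the median of Idi1, r was 0.90. The libraries lowest in both genes, untreated replicate 3 and RG2833 replicates 4 and 5, were those with the least RNA of hippocampal neuron markers. They were also the 3 lowest in the 8 general neuron markers (mean log2 deviations, in that order, -0.20, -0.12 and -0.14). The same 3 libraries were the 3 highest in markers of astrocytes (0.28, 0.40 and 0.40), endothelium (0.53, 0.34 and 0.59), microglia (0.65, 0.25 and 0.32) and oligodendrocyte precursors (0.30, 0.33 and 0.47). The part of these markers in the correlation was not tested.

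Acat2 was in 2 of these pairs. With Nsdhl, a sterol dehydrogenase that helps to remove methyl groups from the ring, r was 0.91 (permutation p = 0.00033, adjusted 0.0446) and rho 0.89 (permutation p = 0.00123, adjusted 0.0957). With Fdft1 r was 0.90 (permutation p = 0.00041, adjusted 0.0446) and rho 0.95 (permutation p = 0.00014, adjusted 0.0609). The pair with Nsdhl had r = 0.93 without RG2833 replicate 5 and untreated replicate 3, the libraries farthest from the median of Nsdhl. The pair with Fdft1 had r = 0.92 without untreated replicate 1 and RG2833 replicate 4, those farthest from the median of Fdft1. Idi1 and Nsdhl had r = 0.90 (permutation p = 0.00039, adjusted 0.0446) and rho = 0.89 (permutation p = 0.00132, adjusted 0.0957), and r was 0.76 without untreated replicate 3 and RG2833 replicate 5. Cyp51 and Sc5d came next with r = 0.89 (permutation p = 0.00076, adjusted 0.066) and rho = 0.71 (permutation p = 0.0267, adjusted 0.201), and r was 0.90 without untreated replicate 2 and RG2833 replicate 4; this pair did not pass.

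Other members ran against Idi1 and Sqle by Pearson's r, less so by rank. With Idi1, Mvk had r = -0.79 and rho = -0.39, and Pmvk r = -0.74 and rho = -0.36. With Sqle, Mvk had r = -0.82 and rho = -0.59, and Pmvk r = -0.83 and rho = -0.52. Srebf1 had r = -0.88 and rho = -0.81 with Idi1. On values not centred by group, none of these pairs had an adjusted p under 0.05 by the permutation tests. Mvk and Pmvk, the kinases of consecutive steps, had r = 0.85 with each other (permutation p = 0.0022, adjusted 0.087) and rho = 0.83 (permutation p = 0.00515, adjusted 0.142); r was 0.76 without the 2 libraries farthest from the median of Mvk. Both were highest where Idi1 and Sqle were lowest: Mvk was at 39.3, 33.9 and 33.9 CPM, and Pmvk at 50.3, 47.1 and 50.9 CPM, in untreated replicate 3 and RG2833 replicates 4 and 5. These 2 genes were singled out after their values were seen. For 4 of 30 members (13.3%), Idi1, Sqle, Ebp and Insig2, those 3 libraries were the lowest 3, against 13.8% of all genes tested. For 3 members (10%), Mvk, Pmvk and Srebf1, they were the highest 3, against 15.7% of all genes. Both shares lay close to or below those of all genes.

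**Figure D3:**
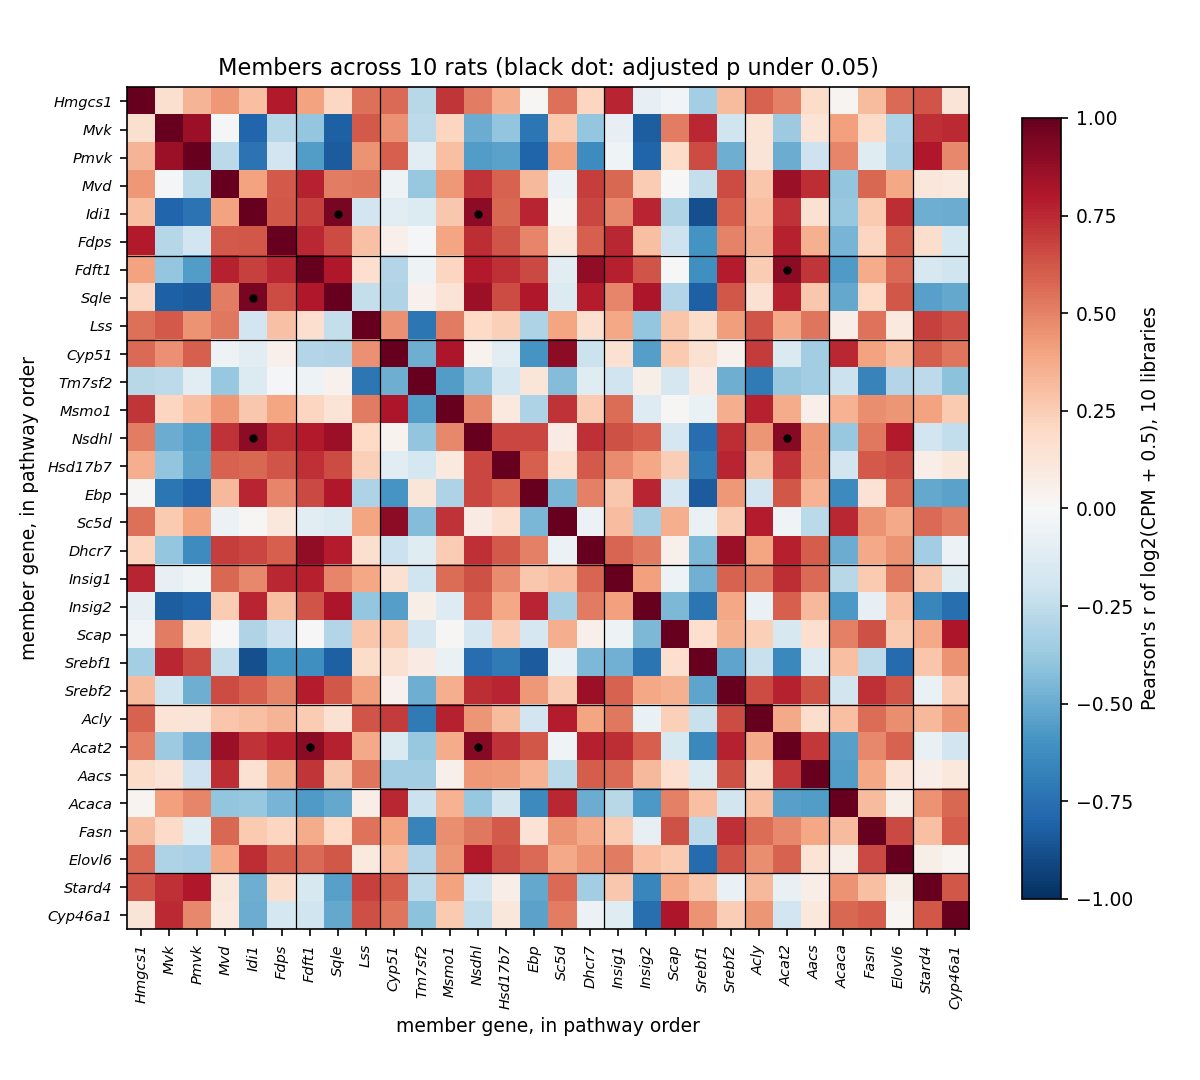
Pearson's r of log2(CPM + 0.5) between each pair of the 30 members over 10 libraries (colour scale from -1 to 1), with genes on both axes in pathway order, black lines between steps, and a black dot on the 4 pairs with an adjusted p under 0.05. Idi1, Sqle, Fdft1, Nsdhl and Acat2 form a red set, against which Mvk and Pmvk are blue.

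Library by library, the 17 enzymes from Hmgcs1 to Dhcr7 differed little between rats. Their mean log2 deviation from the 10-library mean ran from -0.058 to 0.11 in untreated and from -0.11 to 0.12 in RG2833 libraries. The highest values were 0.12 in RG2833 replicate 2 and 0.11 in untreated replicate 1, and the lowest were -0.11 in RG2833 replicate 5 and -0.069 in RG2833 replicate 4. The 8 neuron markers were at 0.23 in untreated replicate 1, at 0.11 in RG2833 replicate 2, at -0.12 in RG2833 replicate 4 and at -0.14 in RG2833 replicate 5. They were lowest in untreated replicate 3, at -0.20, where the sterol enzymes were not, and stood at 0.12 in RG2833 replicate 3, where the sterol enzymes were at -0.0055. The 10 oligodendrocyte markers followed another order, with 0.45 in both untreated replicates 4 and 5, 0.39 in RG2833 replicate 5 and -0.54 in untreated replicate 3, where the sterol enzymes stood at 0.062, 0.051, -0.11 and -0.037. Summed, the neuron markers ran from 6270 to 8516 CPM in untreated and from 6943 to 8156 CPM in RG2833 libraries, and the oligodendrocyte markers from 7620 to 14565 and from 9171 to 16719.5 CPM. Neither list had a marker at 0, and their part in the levels of the members was not tested.

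**Figure D4:**
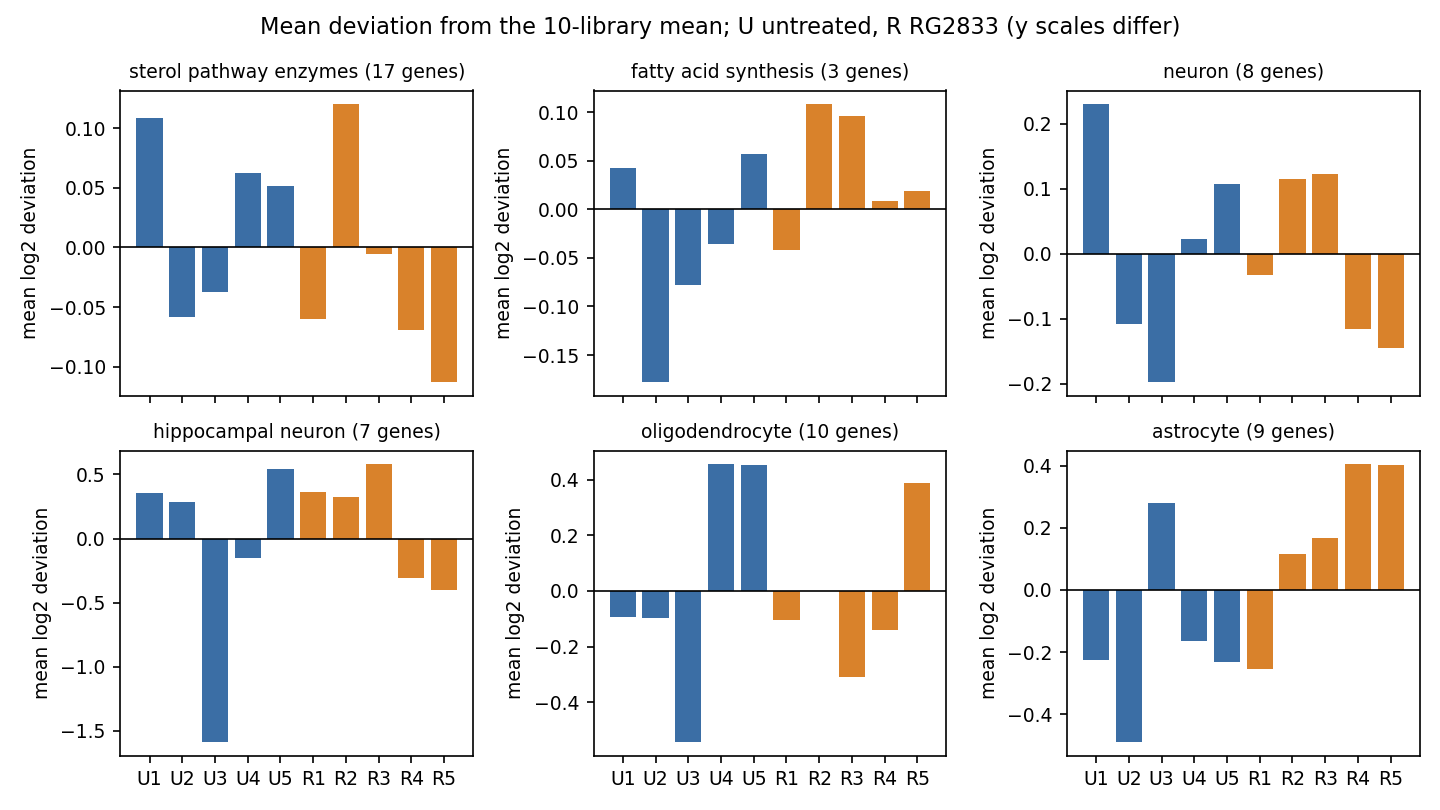
Mean deviation of log2(CPM + 0.5) from the 10-library mean (y axis, scales differ) for the sterol pathway enzymes, the fatty acid synthesis members and 4 lists of cell type markers, in untreated (U1 to U5, blue) and RG2833 libraries (R1 to R5, orange). The sterol enzymes stay between -0.11 and 0.12 in every library, while the hippocampal neuron markers fall to -1.59 in untreated replicate 3.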

How the data were processed

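Values in the deposited count table are expected counts per gene, estimates that need not be whole (11.6% were not); per the submitters' processing notes, the tools were bcl2fastq 2.17, Bowtie2 2.1.0, RSEM 1.2.15 and edgeR, and the build rn6. The annotation, the strand setting and any filter are not given in the sources used here. The second deposited table holds the authors' TMM-scaled CPM signal; 100% of its values above 0 were whole multiples of a step per library (tolerance 0.05 reads), and the recovered reads equalled the rounded expected counts for 100%. It gave all CPM values printed, except where rescaling is named.

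Expected counts were rounded and fitted with edgeR 4.0.16 in R 4.3.3 (filterByExpr with minimum count 10 and minimum total 15, TMM, quasi-likelihood F test, robust dispersions), which left 12161 genes, all 30 members among them; p-values were adjusted by Benjamini-Hochberg over those genes. Intervals of log2 fold changes are 95%. Correlations used log2(CPM + 0.5). Labels do not say how rats were housed or litters shared. The p-values treat the rats as independent and take no account of a shared cage or litter.

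Named in full were Hmgcs1, Sqle, Fdps, Insig1, Srebf2, Fasn and Cyp46a1, members at an unadjusted p under 0.05 or with groups that did not overlap, and the 3 with the largest log2 fold change in each direction; further pathway genes were named at an unadjusted p under 0.05, and the 5 pairs with the largest r. The members and lists were chosen with earlier results of these data known. Alternatives were DESeq2 1.42.0, limma 3.58.1, other scalings and filters, a replicate block and leaving out libraries.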

Additional observations from a re-analysis of the deposited data

Results flagged for a closer look

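Within each group of 5, the gap of the highest or lowest library to its nearest neighbour was compared with the range of the group, and gaps above 0.71 of the range were singled out. Of 62 sets of 5 values, 2 were, where chance gives 3.1 (1 in 20). Sqle in untreated replicate 3 was at 72.4 CPM, while the rest of its group spanned 89.2 to 93.7 CPM, so the gap took 0.787 of the range. Sc5d in RG2833 replicate 1 was at 84.9 CPM, while the rest of its group spanned 96.5 to 100.1 CPM, so the gap took 0.765 of the range.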

How the results depend on the processing

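The number of members with an adjusted p under 0.05 was 0 in the 21 alternatives run, and the number of all genes was 0 in 20 of them and 7 by DESeq2. Acaca kept its direction in these 21, with a log2 fold change of 0.16 to 0.22 and an edgeR, limma or DESeq2 adjusted p of 0.283 to 1.00, and Aacs did too, with -0.28 to -0.20 and 0.292 to 1.00. Reads recovered from the deposited CPM gave the same values as the rounded counts, with 0 genes called. With 1 library left out at a time, the members at an unadjusted p under 0.05 numbered 2 to 7, with 7 (23.3%) without RG2833 replicate 2, where 5.30% of all genes were at that level, and 4 (13.3%) without untreated replicate 3, where 14.2% were. All genes at that level numbered 375 to 1732 and further pathway genes 0 to 7, both highest without untreated replicate 3 (14.2% and 24.1%). Members above 0 numbered 7 to 12, with 7 (23.3%, beside 50.6% of all genes) without untreated replicate 2. Further pathway genes numbered 0 by upper-quartile factors (beside 5.42% of all genes), with at least 1 CPM in every library (beside 5.56%) and under the replicate block (beside 3.3%). They numbered 2 (6.9%) by DESeq2, beside 6.19%, and by limma with either pseudocount, beside 5.28%. With no filter there were 3 (9.68%, beside 5.28%). Without the 3 libraries low in hippocampal neuron markers, chosen after seeing the data, there were 4 (13.8%, beside 5.37%). Without the 2 choroid-rich libraries 6 members (20%, beside 45.4% of all genes) were above 0.

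Values near 0 changed sign: by upper-quartile factors Acly (-0.0059), Fasn (-0.00025) and Elovl6 (-0.0042); with at least 1 CPM in every library Acly (-0.0019) and Elovl6 (-0.00018). Without the 2 choroid-rich libraries they were Pmvk (-0.0074), Tm7sf2 (-0.031), Scap (-0.0052), Acly (-0.020), Fasn (-0.0031) and Elovl6 (-0.054), and without the 3 libraries Pmvk (-0.10), Msmo1 (-0.0088), Hsd17b7 (0.044) and Acly (-0.016). With 1 library left out the ranges that crossed 0 were -0.070 to 0.096 for Pmvk, -0.062 to 0.080 for Tm7sf2, -0.028 to 0.058 for Acly, -0.013 to 0.033 for Fasn, -0.050 to 0.050 for Elovl6, -0.0013 to 0.096 for Cyp46a1, -0.083 to 0.088 for Mvk, -0.019 to 0.053 for Msmo1, -0.0012 to 0.12 for Srebf1 and -0.19 to 0.022 for Idi1. Correlated pairs numbered 21 by group-centred values, Cyp51 with Sc5d among them, though these p-values can be too small. The smallest size of r called was reached by 6.21% of member pairs and 5.92% of pairs with any gene. The cause of these changes was not tested.

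With the replicate number as a block, 401 of all genes were at an unadjusted p under 0.05, against 688 without it. The labels name no link between rats of the same number beyond that number, and whether they shared a cage, litter or batch is not given. The correlations of the deviations of same-numbered rats ran from -0.52 to -0.02 over 5 pairs. Of the libraries, 0 correlated best with their own number. The number of rats limits the precision.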
